A study of Mus musculus with 32 samples.

Results

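Germinal centre B cells of the light zone were compared with those of the dark zone in WT mice, in 8 libraries of the 32 in the series, 4 of each zone, chosen by their labels. The mice were C57BL/6 animals of genotype AID-cre WT, shared by both zones, in which the label names a cre recombinase and no aPIK3CD. Splenocytes were taken at 12 weeks of age, 14 days after an intraperitoneal injection of NP-CGG in alum, a hapten on a carrier protein, which needs T cell help to raise antibodies. For each library 500 cells were sorted directly into lysis buffer for the SMART-Seq v4 low-input RNA sequencing kit. The labels do not give the sort gate of the zones and do not say whether replicates came from separate mice, so p-values measure only the spread between these libraries. The series was made to ask what activated PIK3CD signalling, the aPIK3CD genotype, does to each B cell stage, and the same zone comparison in 8 libraries titled aPIK3CD, 4 of each zone, is set beside it at the end. Their genotype is AID-cre aPIK3CD, except that the libraries of replicate 1 carry AID-cre WT in the genotype field.

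A germinal centre is a site in a lymphoid follicle where activated B cells improve their antibodies. In the dark zone B cells divide and mutate their immunoglobulin genes. In the light zone they take antigen from follicular dendritic cells with the mutated receptor, present it to T follicular helper cells, receive CD40 and cytokine signals, and either die, return to the dark zone, or leave as memory or plasma cells. CXCR4 keeps cells in the dark zone, and CD83 and CD86 are high on the surface of light zone cells.

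All but 1 of the 8 libraries held between 902088 and 1835558 gene counts, and dark zone replicate 3 held 25797. Levels are given as CPM, the counts of a gene scaled to a common library total. In that shallow library 1 count equals 38.0 CPM, and 60.1% of the 10060 genes tested had a count, against 99.2% to 99.9% in each other library. Its composition also departed. Transcripts of the mitochondrial genome took 6.12% of its counts and 0.656% to 1.21% elsewhere, and the 24 genes with the highest dark zone levels averaged 2.96 times their level in the deep libraries. The 5858 genes of 10 to 100 CPM averaged 0.762 times. Fold changes and adjusted p-values are therefore given with and without it, and where a pair of such values is joined by "or", the latter is without it. Counts of list members called are repeated where they differ without it, its own values are given as raw counts, and dark zone means are over the other 3 libraries. Library sizes were scaled by TMM (trimmed mean of M values), and CPM is not corrected for gene length, so levels are compared between libraries and not between genes.

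The labelled cells were checked against marker genes. Summed B cell markers were alike in both zones (5759 to 6308 CPM in the 3 deep dark zone libraries and 5544 to 6750 CPM in the light zone), and summed germinal centre markers lay between 4344 and 4635 CPM in dark zone, 2999 and 3794 CPM in light zone and 456.6 and 496.1 CPM in naive B cells of the same genotype. Markers of T cells, myeloid cells and naive B cells summed to more in every light zone library than in any deep dark zone library. Those of erythroid cells and platelets summed to less (36.8 to 48.9 against 63.0 to 81.9 CPM), and those of dendritic cells overlapped (302.3 to 376.9 against 361.8 to 363.9 CPM). Most of the dendritic cell sum came from Cst3 and Flt3, with 955 and 431 deep dark zone counts and 1120 and 489 light zone counts. Itgax, Clec9a, Siglech, Ccr9 and Bst2 had 1, 0, 0, 5 and 70 deep dark zone counts against 18, 14, 7, 30 and 187. Zbtb46 had 15 against 6, and Xcr1 15 in each. Of the 3 dendritic cell markers tested, 0 were called. The 18 T cell markers summed to 250.6 to 282.5 CPM in dark zone and 423.5 to 876.0 CPM in light zone libraries. Lck alone measured 167.5 to 243.0 CPM in the dark zone and 301.7 to 401.5 CPM in the light zone. The other 17 summed to 20.8, 115.0 and 17.7 CPM in dark zone replicates 1, 2 and 4, with 10 counts in replicate 3, and to 217.3, 228.3, 474.5 and 116.4 CPM in light zone replicates 1 to 4. Of the 12 that could be tested, 6 (Trbc2, Trbc1, Lat, Lck, Cd8b1 and Cd3d) were higher in the light zone at an adjusted p below 0.05, a threshold passed in either direction by 2.58% of all genes tested. Without dark zone replicate 3 they were 5, as Cd8b1 did not pass. Each of the 6 lost its call in at least 1 of the fits that left out 1 library. The 15 myeloid markers summed to 34.0 to 76.4 CPM against 112.3 to 400.2 CPM, with Lyz2 and C1qb higher in the light zone, and Mpo and Elane at 0 in all 8 libraries. S100a8 and S100a9, also on this list, had 63 and 64 counts in light zone replicate 4 and 0 in every other library. Ly6g had 3 counts in dark zone replicate 4 and 0 elsewhere. Lyz2 lost its call without dark zone replicate 1 or 2 (edgeR adjusted p = 0.0626 and 0.0551), as did C1qb (edgeR adjusted p = 0.0823 and 0.0719). The DESeq2 Wald test and limma voom did not call Lyz2 either (adjusted p = 0.234 and 0.363). The 14 markers of naive and marginal zone B cells summed to 1013 to 1370 CPM against 1744 to 2097 CPM, beside 6167 to 7043 CPM in naive B cells. Light zone replicate 3 stood apart in natural killer cell markers, with 218.5 CPM against 4.08 to 22.1 CPM in the other light zone libraries, although naive B cell libraries held 353.4 to 537.8 CPM of them. In bulk samples, fewer cells of a type and less RNA per cell cannot be told apart, and the part these cells had in the differences below was not tested except where a value is given.

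**Figure D1:**
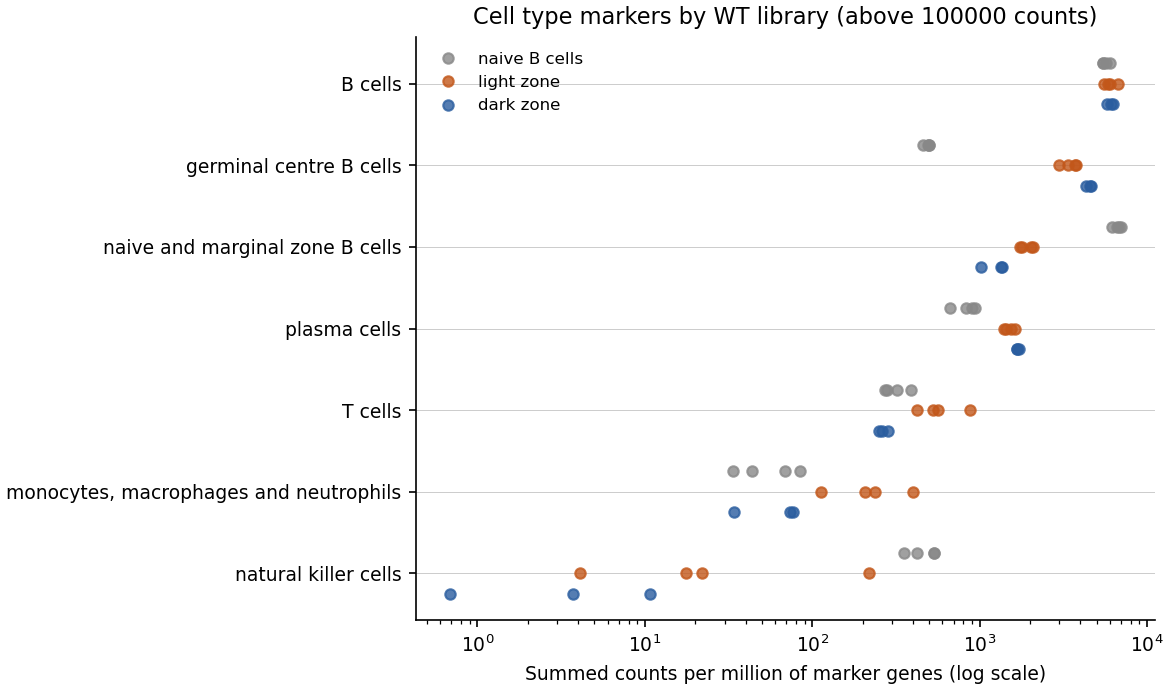
Summed CPM of marker genes (horizontal, log scale) for 7 cell types (rows) in each WT library above 100000 counts, with dark zone in blue, light zone in orange and naive B cells in grey. T cell markers reach 423.5 to 876.0 CPM in the light zone and 250.6 to 282.5 CPM in the dark zone, while B cell markers overlap.

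Cd83, Cd86 and Cxcr4, whose proteins are commonly used to sort the zones, served as a check of the labels and are no finding, since the gate may have used them. Cd83 encodes a glycoprotein of activated B cells that stabilises MHC class II and CD86 at the surface. Cd83 measured 333.8, 216.0 and 433.1 CPM in dark zone replicates 1, 2 and 4, with 7 counts in replicate 3, and 752.4, 703.8, 744.4 and 513.5 CPM in light zone replicates 1 to 4. Cd83 had a log2 fold change of 1.06 (SE 0.19, edgeR adjusted p = 0.00441), or 1.04 (adjusted p = 0.00849) without dark zone replicate 3. Cd86 encodes a ligand of CD28 on T cells. Cd86 measured 244.6, 173.3 and 192.2 CPM in the dark zone, with 3 counts in replicate 3, and 389.4, 273.6, 312.1 and 343.8 CPM in the light zone. Cd86 had a log2 fold change of 0.72 (SE 0.16, edgeR adjusted p = 0.0199), or 0.69 (adjusted p = 0.0259) without dark zone replicate 3. Its call was lost without dark zone replicate 2 or 4 or light zone replicate 1 (edgeR adjusted p = 0.134, 0.0618 and 0.0703). Cxcr4 measured 45.7, 71.2 and 58.5 CPM in the dark zone, with 4 counts in replicate 3, and 22.3, 42.4, 33.5 and 33.7 CPM in the light zone. The ranges of the deep libraries did not overlap for these genes, yet the Cxcr4 difference did not pass the test. Cxcr4 had a log2 fold change of -0.91 (SE 0.31, edgeR adjusted p = 0.126), or -0.83 (adjusted p = 0.138) without dark zone replicate 3.

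Of the 10060 genes tested, 260 (2.58%) passed at an adjusted p below 0.05 in edgeR's quasi-likelihood test, 136 higher in the light zone (1.35%) and 124 higher in the dark zone (1.23%). Without dark zone replicate 3 the counts were 128 (1.27%) and 157 (1.56%), or 2.83% of genes together, and 235 genes were called in the same direction both ways (2.34%). A change of more than 2-fold was found in 87 genes higher in the light zone and 56 higher in the dark zone, or in 71 and 54 without dark zone replicate 3. The dark zone and light zone libraries did not overlap, over the 7 deep libraries, for 127 of the 136 and for all 124, beside 7.51% of all genes tested that were higher in every light zone library and 7.79% in every deep dark zone library (15.3% together). The test used these same libraries, so this separation goes with the call and adds no support to it. The call depended on single libraries, since 30 and 44 genes kept it in each of the 8 fits that left out 1 library. Across those 8 fits and 10 other alternatives, 55 genes were called in the same direction every time, 23 in the light zone and 32 in the dark zone.

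**Figure D2:**
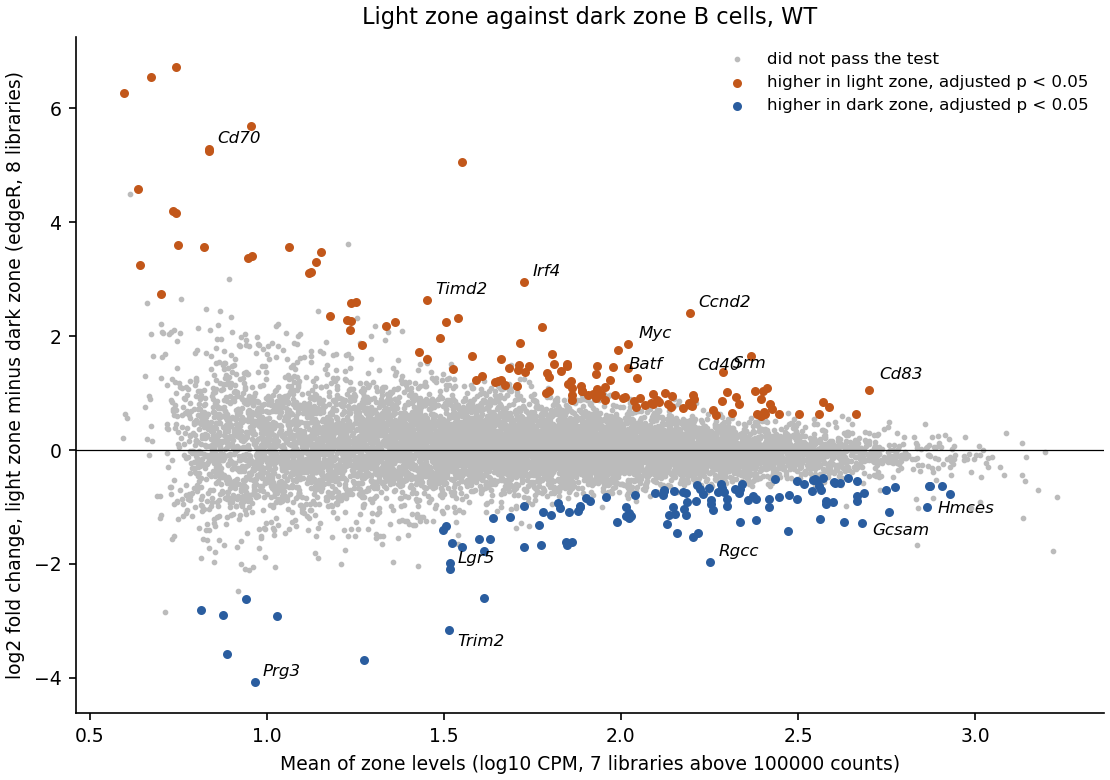
Log2 fold change of light zone minus dark zone (vertical, edgeR, 8 libraries) against the mean of the zone levels (horizontal, log10 CPM over 7 libraries) for 10060 genes, with 136 genes higher in the light zone in orange and 124 higher in the dark zone in blue. The orange points furthest up, such as Cd70, are genes with almost no dark zone counts, whose fold depends on the prior count of the fit, while Ccnd2 and Cd83 stand out at higher levels.

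In each direction 15 genes were named by their fold change among called genes with at least 10 CPM in the higher zone, no overlap of the deep libraries and a call also without dark zone replicate 3, leaving out predicted genes and immunoglobulin segments. Of the 15 toward the dark zone, Trim2, Rgcc and Akap12 are described first. Genes outside the rule, such as Gcnt3 (log2 fold change -2.81 or -2.86) and Fam50b (-2.90 or -2.95), which lost their call without dark zone replicate 3, had larger fold changes than Rgcc and Akap12. Trim2 encodes a ubiquitin ligase of the tripartite motif family. Trim2 measured 65.5, 64.1 and 46.7 CPM in dark zone replicates 1, 2 and 4, with 3 counts in replicate 3, and 9.46, 6.84, 6.03 and 4.49 CPM in the light zone. Trim2 had a log2 fold change of -3.15 (SE 0.37, edgeR adjusted p = 0.000176), or -3.09 (adjusted p = 0.000326) without dark zone replicate 3. Rgcc encodes the regulator of cell cycle that binds CDK1. Rgcc measured 323.9, 269.0 and 261.1 CPM in the dark zone, with 7 counts in replicate 3, and 104.8, 78.7, 53.2 and 50.6 CPM in the light zone. Rgcc had a log2 fold change of -1.97 (SE 0.21, edgeR adjusted p = 5.95e-05), or -1.98 (adjusted p = 0.000272) without dark zone replicate 3. Akap12 encodes a scaffold for protein kinase A. Akap12 measured 134.1, 100.5 and 90.5 CPM in the dark zone, with 1 count in replicate 3, and 25, 34.9, 49.9 and 20.2 CPM in the light zone. Akap12 had a log2 fold change of -1.66 (SE 0.29, edgeR adjusted p = 0.00316), or -1.71 (adjusted p = 0.00405) without dark zone replicate 3. For these genes every deep dark zone library lay above every light zone library, as the naming rule required. Trim2 and Rgcc were near absent from naive B cells, at 1.33 ± 1.57 and 5.06 ± 6.03 CPM (SD, n = 4).

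Serinc5 encodes a serine incorporator family membrane protein. Serinc5 fell from 52.5 ± 9.51 CPM in the dark zone (SD, n = 3) to 13.3 ± 3.26 CPM in the light zone (SD, n = 4). Serinc5 had a log2 fold change of -1.98 (SE 0.34, edgeR adjusted p = 0.00293), or -2.0 (adjusted p = 0.00381) without dark zone replicate 3. Selenop encodes the secreted carrier of selenium. Selenop fell from 112.0 ± 8.24 to 33.7 ± 16.2 CPM. Selenop had a log2 fold change of -1.62 (SE 0.32, edgeR adjusted p = 0.00858), or -1.69 (adjusted p = 0.00636) without dark zone replicate 3. Hbb-bh1 encodes an embryonic beta-like globin. Hbb-bh1 measured 122.7, 96.5 and 101.0 CPM in the dark zone, with 1 count in replicate 3, and 35.2, 45.8, 33.5 and 19.1 CPM in the light zone. Hbb-bh1 had a log2 fold change of -1.61 (SE 0.27, edgeR adjusted p = 0.00224), or -1.66 (adjusted p = 0.00287) without dark zone replicate 3. The adult globin gene Hbb-bt measured 34.6 ± 8.96 and 32.6 ± 10.9 CPM (log2 fold change -0.06 or -0.11, adjusted p = 0.974 or 0.922). The adult globin genes Hbb-bs, Hba-a1 and Hba-a2 were too low to test. They had 47, 17 and 14 counts in the deep dark zone libraries and 8, 4 and 1 in the light zone. Of the dark zone counts, 40, 16 and 13 came from replicate 4, and Hba-a2 had 2 more in replicate 3. The 10 markers of erythroid cells and platelets, which do not include Hbb-bh1, summed to 63.0 to 81.9 CPM in the dark zone and 36.8 to 48.9 CPM in the light zone, and their part in the Hbb-bh1 difference was not tested. The other named genes of this direction were Prg3, Adhfe1, Ptgr1 and Krt222, called in all leave-one-out fits, and Lgr5, Dnase1, Fam167b, Ifit1bl1 and Reln, which were not. Adhfe1 lost its call in the DESeq2 Wald test (log2 fold change -3.76, adjusted p = 0.203). Prg3 lost it with the replicate block and without dark zone replicate 3 (-3.68, edgeR adjusted p = 0.0606). Ptgr1 lost it in the fit over all 8 groups (-1.69, edgeR adjusted p = 0.1). Krt222 (-1.67, edgeR adjusted p = 0.00165) kept its call under every alternative. Lgr5, the R-spondin receptor of epithelial stem cells, had a log2 fold change of -2.09 or -2.17. Lgr5 lost its call without dark zone replicate 1 or 2 (edgeR adjusted p = 0.0644 and 0.0537). Dnase1, a secreted DNA nuclease, had a log2 fold change of -1.77 or -1.80 and lost it without dark zone replicate 1 (edgeR adjusted p = 0.0517). Fam167b had a log2 fold change of -1.70 or -1.59 and lost it without dark zone replicate 1 (edgeR adjusted p = 0.0615). Ifit1bl1 had a log2 fold change of -1.63 or -1.70 and lost it without dark zone replicate 1 or 2 or light zone replicate 1 (edgeR adjusted p = 0.155, 0.132 and 0.0791). Reln, which encodes the matrix protein reelin, had a log2 fold change of -1.55 or -1.51 and lost it without dark zone replicate 1 or 2 or light zone replicate 1 (edgeR adjusted p = 0.0516, 0.161 and 0.0505).

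Further genes stood out among the 32 that stayed higher in the dark zone under every alternative, and are named after their values were seen. Pafah1b3 encodes a catalytic subunit of a platelet-activating factor acetylhydrolase. Pafah1b3 measured 426.5 ± 37.6 CPM in the dark zone and 166.5 ± 31.8 CPM in the light zone. Pafah1b3 had a log2 fold change of -1.42 (SE 0.16, edgeR adjusted p = 0.00012), or -1.38 (adjusted p = 0.000272) without dark zone replicate 3. Smarca4 encodes the BRG1 ATPase of chromatin remodelling complexes. Smarca4 measured 772.3 ± 29.1 and 368.7 ± 48.8 CPM. Smarca4 had a log2 fold change of -1.08 (SE 0.14, edgeR adjusted p = 0.000361), or -1.07 (adjusted p = 0.000272) without dark zone replicate 3. Anxa2 encodes a membrane-binding annexin. Anxa2 measured 604.5 ± 34.1 and 247.1 ± 77.5 CPM. Anxa2 had a log2 fold change of -1.26 (SE 0.19, edgeR adjusted p = 0.000973), or -1.28 (adjusted p = 0.00209) without dark zone replicate 3. Others of the 32 were Myl4, a myosin light chain (log2 fold change -1.53 or -1.49, adjusted p = 0.000361 or 0.00104), Mprip, a myosin phosphatase adaptor (log2 fold change -1.26 or -1.28, adjusted p = 0.00074 or 0.00184), and Lpp, a focal adhesion protein (log2 fold change -1.21 either way, adjusted p = 0.00146 or 0.00381).

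Somatic hypermutation starts with deaminated cytosine in immunoglobulin genes and ends with error-prone repair. Of the 37 genes listed for this process 36 were tested, of which 5 (13.9%) were higher in the dark zone and 0 in the light zone, beside 2.58% of all genes called in either direction, with a median log2 fold change of -0.05 beside 0.02 over all genes tested. Hmces, which shields abasic sites in single-stranded DNA, measured 1021.2, 961.2 and 932.4 CPM in the dark zone, with 31 counts in replicate 3, and 527.3, 523.9, 519.0 and 416.8 CPM in the light zone. Hmces had a log2 fold change of -1.0 (SE 0.14, edgeR adjusted p = 0.000463), or -0.97 (adjusted p = 0.000272) without dark zone replicate 3. Mbd4 encodes a glycosylase that removes uracil and thymine from mismatches. Mbd4 measured 376.9 ± 4.75 CPM in the dark zone and 220.7 ± 51.6 CPM in the light zone. Mbd4 had a log2 fold change of -0.79 (SE 0.16, edgeR adjusted p = 0.0117), or -0.77 (adjusted p = 0.0186) without dark zone replicate 3. Each deep dark zone library lay above each light zone library, and light zone replicate 4 was the lowest of its zone for both genes.

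Poli, a translesion polymerase, and Xrcc1, a scaffold of single-strand break repair, were also called. Poli had a log2 fold change of -1.09 either way (adjusted p = 0.0221 or 0.0253). Poli lost its call without dark zone replicate 1, 2 or 4 or light zone replicate 2 or 3 (edgeR adjusted p = 0.056 to 0.111). Xrcc1 had -0.59 or -0.61 (adjusted p = 0.0436 or 0.0359). Xrcc1 lost its call without dark zone replicate 1, 2 or 4 or light zone replicate 1, 2 or 3 (edgeR adjusted p = 0.063 to 0.208). Polh encodes the polymerase that makes most mutations at A and T. Polh measured 36.6 ± 13.7 CPM in the dark zone and 20.4 ± 6.49 CPM in the light zone, a difference that did not pass the test (log2 fold change -0.80 or -0.86, adjusted p = 0.349 or 0.262). Nuggc encodes a nuclear GTPase of germinal centre B cells that limits DNA breaks. Nuggc measured 531.2, 529.3 and 437.3 CPM in the dark zone, with 14 counts in replicate 3, and 281.9, 281.8, 280.3 and 197.7 CPM in the light zone. Nuggc had a log2 fold change of -0.94 (SE 0.14, edgeR adjusted p = 0.00119), or -0.94 (adjusted p = 0.00196) without dark zone replicate 3. Neil1 encodes a glycosylase for oxidised bases. Neil1 fell from 510.0 ± 46.7 to 282.2 ± 74.5 CPM. Neil1 had a log2 fold change of -0.91 (SE 0.18, edgeR adjusted p = 0.00783), or -0.85 (adjusted p = 0.0128) without dark zone replicate 3. Apobec1, an RNA-editing cytidine deaminase, and Helq, a repair helicase, were named after their values were seen and had log2 fold changes of -0.70 or -0.71 (adjusted p = 0.00441 or 0.00297) and -0.86 or -0.84 (adjusted p = 0.00187 or 0.00249). Hmces measured 133.4 ± 30.8 CPM in naive B cells (SD, n = 4).

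Genes of division were separated by cell cycle phase. Of 71 genes of G2 and mitosis 70 were tested, and 9 (12.9%) were higher in the dark zone and 0 in the light zone, or 11 and 0 without dark zone replicate 3, beside 2.58% of all genes. Their median log2 fold change was -0.37 with and without that library, beside 0.02 over all genes, and 68 of the 70 were negative, beside 47.8% of all genes. Of 52 genes of G1/S and DNA replication 51 were tested, with 1 higher in each zone (1 in the light zone and 3 in the dark zone without replicate 3) and a median of -0.09. These lists were not tested against each other.

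Cdc25b encodes the phosphatase that activates CDK1 at entry into mitosis. Cdc25b measured 383.3, 354.4 and 274.4 CPM in dark zone replicates 1, 2 and 4, with 10 counts in replicate 3, and 148.7, 204.5, 107.5 and 119.1 CPM in the light zone. Cdc25b had a log2 fold change of -1.22 (SE 0.19, edgeR adjusted p = 0.00119), or -1.22 (adjusted p = 0.00343) without dark zone replicate 3. It was the only one of the 9 to keep its call in all 8 leave-one-out fits. Cenpf and Cenpe, proteins of the kinetochore, measured 700.5 ± 16.1 and 906.2 ± 21.6 CPM in the dark zone and 422.1 ± 43.4 and 580.3 ± 42.5 CPM in the light zone. Cenpf had a log2 fold change of -0.70 or -0.73 (adjusted p = 0.00634 or 0.00196) and Cenpe of -0.64 or -0.65 (adjusted p = 0.00877 or 0.00218), and Cenpf lost the call without dark zone replicate 2 (edgeR adjusted p = 0.0508). Cenpe lost it without dark zone replicate 2 (edgeR adjusted p = 0.069). Hmmr encodes a protein of spindle microtubules. Hmmr measured 362.7, 418.5 and 415.7 CPM in the dark zone, with 7 counts in replicate 3, and 219.7, 282.5, 285.8 and 249.4 CPM in the light zone. Hmmr had a log2 fold change of -0.59 (SE 0.14, edgeR adjusted p = 0.0239), or -0.63 (adjusted p = 0.015) without dark zone replicate 3. Hmmr lost the call without dark zone replicate 1, 2 or 4 or light zone replicate 1 (edgeR adjusted p = 0.0608 to 0.143). Knl1, a kinetochore scaffold (-0.55 either way), lost it without dark zone replicate 1, 2 or 4 or light zone replicate 1 or 2 (edgeR adjusted p = 0.0654 to 0.125). Cdca8, the borealin subunit of the chromosomal passenger complex (-0.50 or -0.52), lost it without dark zone replicate 1, 2 or 4 or light zone replicate 1, 2 or 3 (edgeR adjusted p = 0.0752 to 0.142). The others called were Tpx2, a spindle assembly factor (-0.54 or -0.57), Cdca3 (-0.51 or -0.52) and Ckap2l, a spindle protein (-0.69 or -0.68). Tpx2 lost the call without dark zone replicate 1, 2 or 4 or light zone replicate 1 or 2 (edgeR adjusted p up to 0.162). Cdca3 lost it without dark zone replicate 1, 2 or 4 or light zone replicate 1, 2 or 3 (edgeR adjusted p up to 0.167), and Ckap2l without dark zone replicate 1, 2, 3 or 4 or light zone replicate 1 or 2 (edgeR adjusted p up to 0.14). The mitotic kinase Plk1 measured 172.6 ± 3.76 and 149.1 ± 27.9 CPM (log2 fold change -0.16 or -0.21, adjusted p = 0.761 or 0.597), and cyclin B1, encoded by Ccnb1, 162.6 ± 34.6 and 132.0 ± 21.4 CPM (log2 fold change -0.25 or -0.30, adjusted p = 0.633 or 0.478), neither of which passed. In the fit over all 8 groups of the series Cdc25b kept its call (adjusted p = 0.00149), and the other 8 lost it, from Cenpe at 0.0631 and Cdca8 at 0.324 to Cdca3 at 0.712, with Cenpf at 0.605.

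Promoters of these genes are known for CCAAT boxes, bound by NF-Y, and the cell cycle gene homology region (CHR), bound by the DREAM and MuvB complexes. The 250 bases before the RefSeq start of 2 called genes are shown because they hold several such letters. They are from RefSeq on GRCm38.p6, read on the minus strand of the genome, 5′ to 3′ along the gene, with CCAAT or its reverse complement ATTGG, and TTTGAA or its reverse complement TTCAAA, in capitals.
Hmmr, chr11:40733438-40733687, minus strand: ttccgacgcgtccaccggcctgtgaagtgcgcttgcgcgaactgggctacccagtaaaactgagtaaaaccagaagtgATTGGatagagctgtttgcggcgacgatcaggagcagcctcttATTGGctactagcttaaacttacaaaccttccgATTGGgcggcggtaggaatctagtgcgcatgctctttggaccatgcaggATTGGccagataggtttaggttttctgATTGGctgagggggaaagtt
Ckap2l, chr2:129297213-129297462, minus strand: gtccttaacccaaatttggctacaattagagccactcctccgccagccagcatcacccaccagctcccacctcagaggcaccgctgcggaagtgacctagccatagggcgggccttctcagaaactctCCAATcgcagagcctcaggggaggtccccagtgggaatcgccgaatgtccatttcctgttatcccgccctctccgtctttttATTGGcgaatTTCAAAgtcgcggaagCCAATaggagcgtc
Hmmr holds 5 CCAAT boxes and Ckap2l 3 beside 1 CHR. Searched on both strands, CCAAT was found in 45 of 64 windows (70.3%) of the G2 and mitosis genes tested (58 of 70 genes matched), in 31 of 49 (63.3%) of those of G1/S and replication, in 36.5% of the windows of all genes tested and in 33.8% of all 32851 windows. TTTGAA was found in 22 of the 64 windows (34.4%), in 10.8% of those of all genes tested and in 16% of all windows, and in 1 of the 8 windows of the mitotic genes called. A match describes letters and not a bound site.

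Regulators of growth were among the genes higher in the light zone. Ccnd2, cyclin D2 of the G1 phase, measured 34.3, 34.8 and 78.7 CPM in dark zone replicates 1, 2 and 4, with 1 count in replicate 3, and 225.8, 266.8, 235.3 and 330.3 CPM in the light zone. Ccnd2 had a log2 fold change of 2.41 (SE 0.25, edgeR adjusted p = 5.95e-05), or 2.4 (adjusted p = 0.000272) without dark zone replicate 3. Myc encodes the growth-promoting transcription factor of positively selected B cells. Myc measured 33.5, 38.0 and 62.0 CPM in the dark zone, with 3 counts in replicate 3, and 158.9, 168.9, 209.0 and 125.8 CPM in the light zone. Myc had a log2 fold change of 1.86 (SE 0.25, edgeR adjusted p = 0.000361), or 1.89 (adjusted p = 0.000962) without dark zone replicate 3. Batf encodes an AP-1 factor that partners IRF4. Batf measured 51.1, 34.8 and 50.1 CPM in the dark zone, with 0 counts in replicate 3, and 162.9, 174.4, 138.8 and 125.8 CPM in the light zone. Batf had a log2 fold change of 1.76 (SE 0.23, edgeR adjusted p = 0.000361), or 1.72 (adjusted p = 0.000609) without dark zone replicate 3. No light zone library overlapped a deep dark zone library for these genes, which the naming rule demands of any gene named by fold change.

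Irf4 encodes a transcription factor induced by B cell receptor and CD40 signals and required for plasma cells. Irf4 measured 5.33, 19.0 and 12.5 CPM in the dark zone, with 0 counts in replicate 3, and 48.7, 103.3, 120.7 and 105.6 CPM in the light zone. Irf4 had a log2 fold change of 2.95 (SE 0.39, edgeR adjusted p = 0.000361), or 2.93 (adjusted p = 0.00137) without dark zone replicate 3. Runx3 encodes a RUNT domain transcription factor. Runx3 rose from 23.1 ± 3.64 to 68.8 ± 8.62 CPM. Runx3 had a log2 fold change of 1.59 (SE 0.28, edgeR adjusted p = 0.00379), or 1.56 (adjusted p = 0.00406) without dark zone replicate 3. Runx3 is also expressed by T cells, whose markers were higher in the light zone, and natural killer cells, whose summed markers overlapped between zones (0.68 to 10.8 CPM in the dark zone and 4.08 to 218.5 CPM in the light zone). Timd2 encodes a receptor for ferritin. Timd2 measured 5.33, 6.33 and 11.8 CPM in the dark zone, with 0 counts in replicate 3, and 49.3, 53.4, 45.5 and 47.2 CPM in the light zone. Timd2 had a log2 fold change of 2.63 (SE 0.38, edgeR adjusted p = 0.000753), or 2.61 (adjusted p = 0.00163) without dark zone replicate 3. Timd2 was listed at 0 CPM in the 4 naive libraries, where Ccnd2, Myc and Irf4 measured 227.6 ± 21.1, 183.7 ± 30.1 and 146.8 ± 29.0 CPM (SD, n = 4).

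**Figure D3:**
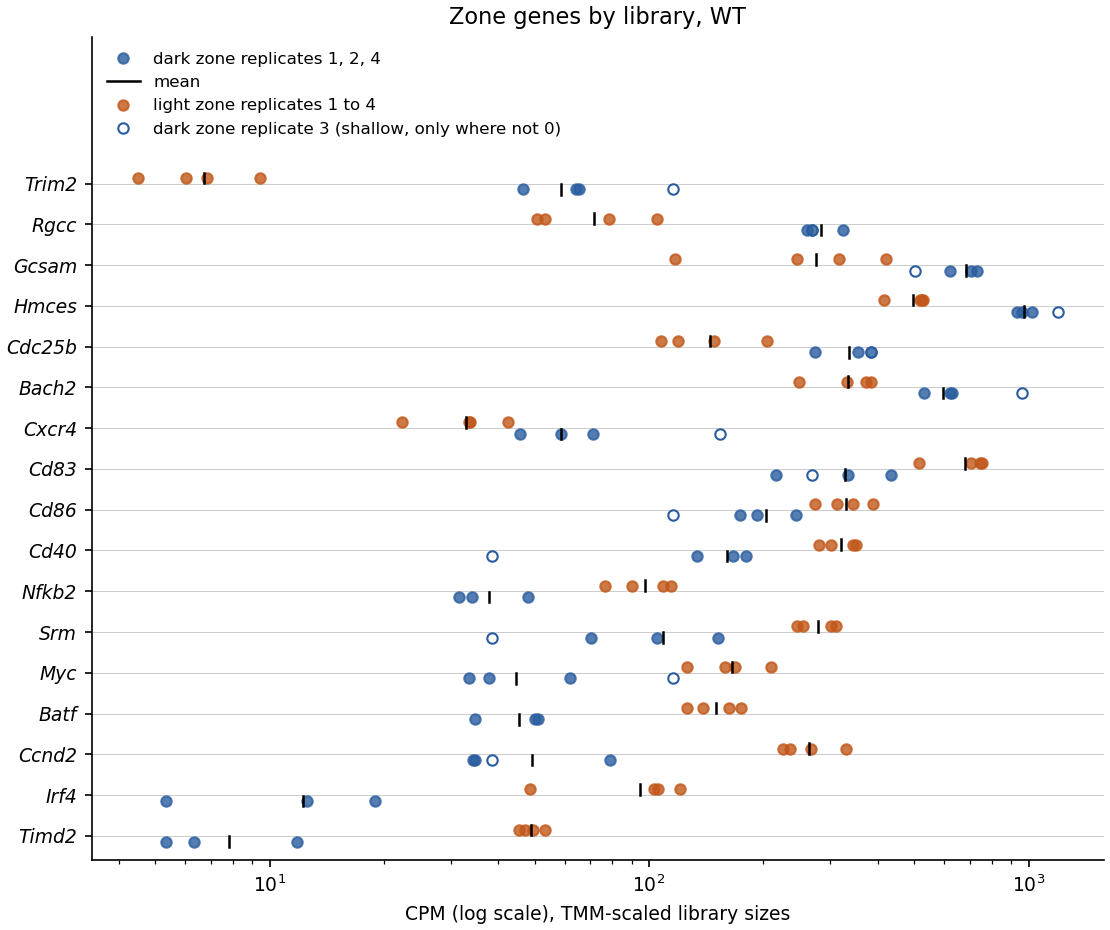
CPM (horizontal, log scale) of 17 genes in each WT library, with dark zone replicates 1, 2 and 4 filled blue, light zone replicates 1 to 4 orange, black bars for their means, and dark zone replicate 3 as an open circle where it had a count. Trim2 separates the zones toward the dark zone and Irf4, Ccnd2 and Timd2 toward the light zone, with no overlap of filled points in any of the 17 rows.

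Of the 15 genes named by the same rule toward the light zone, 4 had 2 or fewer dark zone counts. Of the called genes outside the rule, Adm, the unnamed ENSMUSG00000115681, Igkv4-90, Fcgr3 and Cd96 also had 0, 0, 1, 1 and 2 dark zone counts. Pla1a, a phosphatidylserine-specific phospholipase, had 0 counts in all 4 dark zone libraries and 56 in the light zone, at least 13.5-fold higher against a floor of 3 counts over the dark zone. Cd70, the ligand of CD27, had 1 count in the dark zone and 75 in the light zone, a ratio of 54.4 (95% exact interval 9.46 to 2176). The interval covers counting error alone, as amplified reads carry no molecular identifiers. Wnt10a, a WNT ligand, had 1 and 111 counts (ratio 80.5, interval 14.1 to 3206), and Cd63, a tetraspanin of endosomes and granules, 2 and 60 counts (ratio 21.7, interval 5.76 to 183.7). Pla1a and Cd70 kept their call in all leave-one-out fits. In limma voom with sample quality weights, highest for the shallow dark zone replicate 3 (1.59), they lost it (adjusted p = 0.165 and 0.108). Wnt10a and Cd63 also lost their call in limma voom (adjusted p = 0.31 and 0.124). Wnt10a lost it without dark zone replicate 1 or 2 (edgeR adjusted p = 0.0564 and 0.0521). Cd63 lost it without dark zone replicate 1 or 2 (edgeR adjusted p = 0.0624 and 0.0699). Smyd2, a lysine methyltransferase (0.76, 2.37 and 1.39 against 19.6, 17.1, 15.9 and 12.4 CPM, log2 fold change 3.37 or 3.36, adjusted p = 0.00596 or 0.0108), Acy1, an aminoacylase (7.62, 3.96 and 3.48 against 23.7, 28.0, 26.9 and 43.8 CPM, log2 fold change 2.59 or 2.57, adjusted p = 0.00566 or 0.00885), Myo1f, a class I myosin (0.76, 2.37 and 4.87 against 20.3, 31.5, 27.4 and 15.7 CPM, log2 fold change 3.11 or 3.09, adjusted p = 0.00614 or 0.0117), and Shisa8 (17.5, 8.70 and 6.96 against 35.2, 44.5, 57.6 and 96.6 CPM, log2 fold change 2.33 or 2.37, adjusted p = 0.00527 or 0.00777) kept theirs. Ydjc was also among the 15 (log2 fold change 3.13 or 3.12, adjusted p = 0.00877 or 0.0186), as were Cd3d (log2 fold change 2.59 or 2.71, adjusted p = 0.0486 or 0.0498) and Lat (log2 fold change 2.35 or 2.48, adjusted p = 0.0315 or 0.0234), both markers of T cells. Ydjc lost its call without dark zone replicate 1 or 2 (edgeR adjusted p = 0.0546 and 0.0549), Cd3d without dark zone replicate 1 or 4 or light zone replicate 1, 2 or 3 (edgeR adjusted p = 0.0536 to 0.216) and Lat without dark zone replicate 1, 2 or 4 or light zone replicate 1 or 3 (edgeR adjusted p = 0.0532 to 0.134).

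NF-kB factors carry the signal of CD40, and many of their targets are their own inhibitors and surface receptors of the pathway. Of 50 genes of the pathway or induced by CD40, 46 were tested and 13 (28.3%) were higher in the light zone and 0 in the dark zone, or 10 and 1 without dark zone replicate 3, beside 2.58% of all genes. The 13 include Cd83, which is no finding here. Their median log2 fold change was 0.64 with and without that library, beside 0.02 over all genes, and 41 of 46 were positive, beside 52.2% of all genes. Cd40 itself measured 179.8, 133.7 and 166.4 CPM in dark zone replicates 1, 2 and 4, with 1 count in replicate 3, and 350.8, 345.4, 302.3 and 280.9 CPM in the light zone. Cd40 had a log2 fold change of 1.03 (SE 0.16, edgeR adjusted p = 0.00157), or 0.99 (adjusted p = 0.0019) without dark zone replicate 3. Nfkb2 encodes the p100 precursor of the non-canonical pathway. Nfkb2 measured 48.0, 31.6 and 34.1 CPM in the dark zone, with 0 counts in replicate 3, and 76.4, 114.2, 90.0 and 109.0 CPM in the light zone. Nfkb2 had a log2 fold change of 1.38 (SE 0.26, edgeR adjusted p = 0.00628), or 1.35 (adjusted p = 0.00777) without dark zone replicate 3. Both kept their call under every alternative.

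Inhibitors of the pathway were also higher in the light zone. Nfkbia encodes IkB-alpha. Nfkbia measured 315.5, 204.9 and 354.4 CPM in the dark zone, with 4 counts in replicate 3, and 494.8, 503.4, 497.6 and 435.9 CPM in the light zone. Nfkbia had a log2 fold change of 0.76 (SE 0.17, edgeR adjusted p = 0.017), or 0.72 (adjusted p = 0.0224) without dark zone replicate 3. Nfkbia lost its call without dark zone replicate 2 (edgeR adjusted p = 0.132). Nfkbid rose from 45.3 ± 8.64 to 125.9 ± 53.2 CPM (log2 fold change 1.47 or 1.46, adjusted p = 0.0113 or 0.0238). Nfkbid lost its call without dark zone replicate 2 (edgeR adjusted p = 0.0732). Nfkbie rose from 76.9 ± 22.8 to 149.6 ± 31.8 CPM (log2 fold change 0.92 or 0.95, adjusted p = 0.0366 or 0.0363). Nfkbie lost its call without dark zone replicate 1 or 4 or light zone replicate 3 (edgeR adjusted p = 0.188, 0.0919 and 0.121). Birc3 encodes an inhibitor of apoptosis. Birc3 rose by a log2 fold change of 0.75 or 0.71 (adjusted p = 0.0309 or 0.0326). Birc3 lost its call without dark zone replicate 2 or 4 or light zone replicate 1 or 2 (edgeR adjusted p = 0.0775 to 0.164). Ebi3, a cytokine subunit of IL-27 and IL-35 (2.18 or 2.16), lost its call without dark zone replicate 2, 3 or 4 or light zone replicate 1, 2 or 3 (edgeR adjusted p = 0.0502 to 0.108). Tnfsf9, the 4-1BB ligand (1.33 or 1.32), lost its call without dark zone replicate 2, 3 or 4 or light zone replicate 1, 2 or 3 (edgeR adjusted p = 0.0725 to 0.206). Bcl3 (1.22 or 1.18), Ikbke (1.85 or 1.82) and Marcks (1.88 or 1.85) were also called. Bcl3 lost its call without dark zone replicate 1 or 2 or light zone replicate 1, 2 or 3 (edgeR adjusted p up to 0.151), Ikbke without dark zone replicate 1, 2, 3 or 4 or light zone replicate 1, 2 or 3 (edgeR adjusted p up to 0.119) and Marcks without dark zone replicate 1, 2, 3 or 4 or light zone replicate 3 or 4 (edgeR adjusted p up to 0.187). Traf1, another known target, measured 139.3 ± 35.6 and 150.6 ± 16.5 CPM and did not pass (log2 fold change 0.14 or 0.10, adjusted p = 0.805 or 0.852), nor did Relb (log2 fold change 1.03 or 0.99, adjusted p = 0.0548 or 0.0556) or Tnfaip3, the deubiquitinase A20 (log2 fold change 1.22 or 1.37, adjusted p = 0.119 or 0.0423), which passed without dark zone replicate 3.

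The upstream windows of 2 inhibitory or precursor genes of this pathway are shown for their kappaB letters, GGG, any 5 bases and CC, on either strand, in capitals, from RefSeq on GRCm38.p6, 5′ to 3′ along the gene. Nfkb2 has several RefSeq starts and its first window is given.
Nfkbia, chr12:55492648-55492897, minus strand: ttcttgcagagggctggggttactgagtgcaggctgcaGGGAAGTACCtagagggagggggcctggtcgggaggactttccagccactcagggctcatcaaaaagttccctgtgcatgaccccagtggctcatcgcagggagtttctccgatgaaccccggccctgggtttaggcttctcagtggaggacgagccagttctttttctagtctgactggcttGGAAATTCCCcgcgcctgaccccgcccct
Nfkb2, chr19:46304487-46304736, plus strand: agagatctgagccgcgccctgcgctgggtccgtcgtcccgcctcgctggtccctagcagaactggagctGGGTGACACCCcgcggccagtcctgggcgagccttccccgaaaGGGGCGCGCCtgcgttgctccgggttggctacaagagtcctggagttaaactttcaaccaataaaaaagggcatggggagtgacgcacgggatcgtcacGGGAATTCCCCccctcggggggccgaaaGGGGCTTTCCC
The Nfkbia window holds 2 matches and the Nfkb2 window 7, some of which overlap each other or the reverse strand. On both strands the letters were found in 11 of 12 windows of the NF-kB genes called (8 of 13 genes matched), in 35 of 50 windows (70.0%) of those tested, in 61.2% of the windows of all genes tested and in 45.8% of all windows. They were also found in 11 of 13 windows of the MYC targets called, described next.

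MYC drives ribosome assembly, nucleotide and polyamine synthesis. Of 47 such targets 46 were tested, all 46 had a positive log2 fold change, beside 52.2% of all genes, and 12 (26.1%) were higher in the light zone and 0 in the dark zone (11 and 0 without dark zone replicate 3), beside 2.58% of all genes. Their median was 0.64, or 0.61 without that library. Srm, spermidine synthase, measured 105.2, 70.4 and 151.8 CPM in dark zone replicates 1, 2 and 4, with 1 count in replicate 3, and 311.6, 300.9, 255.1 and 246.1 CPM in the light zone. Srm had a log2 fold change of 1.37 (SE 0.21, edgeR adjusted p = 0.00103), or 1.34 (adjusted p = 0.00286) without dark zone replicate 3. Shmt1 encodes a serine hydroxymethyltransferase of one-carbon metabolism. Shmt1 measured 42.7, 41.9 and 68.9 CPM in the dark zone, with 1 count in replicate 3, and 139.9, 153.2, 161.3 and 102.2 CPM in the light zone. Shmt1 had a log2 fold change of 1.45 (SE 0.23, edgeR adjusted p = 0.00157), or 1.44 (adjusted p = 0.00373) without dark zone replicate 3. Nolc1 and Rrp1b, nucleolar proteins, rose from 147.6 ± 7.92 and 56.2 ± 13.9 CPM to 275.5 ± 41.1 and 130.0 ± 14.5 CPM. Their log2 fold changes were 0.93 or 0.90 (adjusted p = 0.00273 or 0.00381) and 1.23 or 1.2 (adjusted p = 0.00614 or 0.00636), and these 4 genes kept the call under every alternative.

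Ppan, a ribosome assembly factor (log2 fold change 0.83 or 0.79, adjusted p = 0.0155 or 0.0189), lost its call without dark zone replicate 2 or light zone replicate 3 (edgeR adjusted p = 0.117 and 0.057). Hspd1 and Hspe1, the mitochondrial chaperonin pair, were also on the list of heat shock and dissociation stress. They were the 2 called of 11 tested there (18.2%, beside 2.58% of all genes, median 0.46). Hspd1 (log2 fold change 0.75 or 0.73, adjusted p = 0.0155 or 0.0189) lost its call without dark zone replicate 1 or 2 or light zone replicate 2 or 3 (edgeR adjusted p = 0.0503 to 0.0951) and Hspe1 (log2 fold change 0.96 or 0.97, adjusted p = 0.0254 or 0.0272) without dark zone replicate 1, 2 or 4 or light zone replicate 2 (edgeR adjusted p = 0.0584 to 0.112). Rrp9, Dkc1, Gart, Nop16 and Nop2 were also called. Rrp9 lost the call without dark zone replicate 1 or 2 or light zone replicate 2 or 3 (edgeR adjusted p up to 0.112) and Dkc1 without dark zone replicate 1 or 2 or light zone replicate 1 or 3 (edgeR adjusted p up to 0.12). Gart lost it without dark zone replicate 1, 2 or 4 or light zone replicate 1, 2 or 3 (edgeR adjusted p up to 0.165), Nop16 without dark zone replicate 1, 2 or 4 or light zone replicate 1, 2 or 3 (edgeR adjusted p up to 0.161) and Nop2 without dark zone replicate 1, 2, 3 or 4 or light zone replicate 2 or 3 (edgeR adjusted p up to 0.23). Ribosomal protein genes themselves, 78 tested, held 0 calls in either direction with a median of 0.07, or 0.16 without dark zone replicate 3. Of the cyclin and MYC network list, 26 tested, Ccnd2, Myc, Batf and Irf4 were called in the light zone and 0 in the dark zone (15.4%, beside 2.58% of all genes). Batf and Irf4 were put on this list but are neither cyclins nor members of the MYC network. Irf4 is counted again in the lists of immediate early genes, transcription factors and plasma cell genes, so these shares are not independent. Mxd3 encodes a MYC antagonist. Mxd3 measured 160.0 ± 35.0 and 99.7 ± 29.7 CPM (log2 fold change -0.61 or -0.67, adjusted p = 0.238 or 0.133).

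Presentation of antigen and contact with T cells were described by 2 lists. Of 35 tested genes for receptors and ligands of T cell contact, 5 were higher in the light zone and 0 in the dark zone (14.3%), beside 2.58% of all genes. Without dark zone replicate 3 they were 4 and 2, and the median log2 fold change was 0.34 with all libraries. Besides Cd86, which the gate may have used and which is no finding, the 5 were Cd40, Cd70, Havcr1 and Tnfsf9. Havcr1 encodes TIM-1. Havcr1 rose from 113.7 ± 8.71 to 207.7 ± 50.6 CPM (log2 fold change 0.89 or 0.87, adjusted p = 0.0147 or 0.023). Havcr1 lost its call without dark zone replicate 2 or light zone replicate 1 or 3 (edgeR adjusted p = 0.0837, 0.0521 and 0.0511). Icam1 encodes an adhesion ligand. Icam1 measured 75.4, 30.9 and 75.2 CPM in the dark zone and 116.9, 138.8, 155.8 and 65.2 CPM in the light zone, with overlap, and did not pass (log2 fold change 0.98 either way, adjusted p = 0.0868 or 0.112). Of 24 tested genes of MHC class II and antigen processing, 2 were higher in the light zone and 1 in the dark zone (12.5%), beside 2.58% of all genes. Ifi30, a lysosomal thiol reductase (log2 fold change 0.64 either way, adjusted p = 0.0281 or 0.0283), and Ctsb, the protease cathepsin B (log2 fold change 0.71 or 0.70, adjusted p = 0.0392 or 0.0487), were higher in the light zone. March1, the ubiquitin ligase that removes MHC class II and CD86 from the surface, was higher in the dark zone, at 260.3 ± 22.1 against 137.3 ± 15.1 CPM. March1 had a log2 fold change of -0.86 (SE 0.18, edgeR adjusted p = 0.0134), or -0.92 (adjusted p = 0.00249) without dark zone replicate 3. Ifi30 lost its call without dark zone replicate 1, 2 or 4 or light zone replicate 2 (edgeR adjusted p = 0.051 to 0.144). Ctsb lost it without dark zone replicate 1, 2 or 4 or light zone replicate 1, 2 or 3 (edgeR adjusted p = 0.0617 to 0.157) and March1 without dark zone replicate 1 or 2 or light zone replicate 2 (edgeR adjusted p = 0.0888, 0.0898 and 0.0502). Ctsb and Ifi30 are also expressed by myeloid cells, whose markers were higher in the light zone.

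The B cell receptor pathway held 2 calls of 41 genes tested (4.88%), or 3 without dark zone replicate 3, beside 2.58% of all genes, which is no result about the list. Itpr1, a calcium channel of the endoplasmic reticulum (log2 fold change 0.98 or 0.94, adjusted p = 0.0239 or 0.02), was higher in the light zone and Cbl, a ubiquitin ligase that damps the receptor (log2 fold change -0.67 or -0.69, adjusted p = 0.0201 or 0.0193), in the dark zone, and the median was 0.03. Itpr1 lost its call without dark zone replicate 1, 2 or 4 or light zone replicate 1 or 3 (edgeR adjusted p = 0.0532 to 0.128). Cbl lost it without dark zone replicate 1 or 2 or light zone replicate 2 or 3 (edgeR adjusted p = 0.0646 to 0.146). Among 23 tested immediate early genes Irf4, Myc and Junb were higher in the light zone and Klf6 in the dark zone (17.4%, beside 2.58% of all genes). Junb encodes an AP-1 factor. Junb rose from 71.0 ± 15.7 to 134.3 ± 14.3 CPM (log2 fold change 0.93 or 0.91, adjusted p = 0.016 or 0.0226). Junb lost its call without dark zone replicate 1 or 2 or light zone replicate 2 (edgeR adjusted p = 0.102, 0.0797 and 0.0635). Klf6 encodes a zinc finger factor. Klf6 measured 256.1, 193.8 and 174.8 CPM in the dark zone, with 9 counts in replicate 3, and 104.1, 106.0, 107.5 and 68.5 CPM in the light zone. Klf6 had a log2 fold change of -1.13 (SE 0.19, edgeR adjusted p = 0.00295), or -1.10 (adjusted p = 0.0051) without dark zone replicate 3. The early growth response gene Egr1 measured 34.3, 12.7 and 35.5 CPM in the dark zone and 38.5, 82.1, 63.1 and 44.9 CPM in the light zone and did not pass (log2 fold change 1.04 or 1.05, adjusted p = 0.131 or 0.149), and Egr2 (log2 fold change 1.84 or 1.82, adjusted p = 0.117 or 0.146) and Egr3 (log2 fold change 1.76 or 1.73, adjusted p = 0.255 or 0.305) did not pass either.

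Transcription factors of B cells were called in both directions, 4 in the light zone (Batf, Irf4, Runx3 and Prdm1) and 3 in the dark zone (Klf6, Bach2 and Pou2af1) of 59 tested. These were 11.9% together, beside 2.58% of all genes, or 4 and 4 genes without dark zone replicate 3. Bach2 encodes a repressor that holds back plasma cell fate. Bach2 measured 627.9, 621.0 and 531.3 CPM in dark zone replicates 1, 2 and 4, with 25 counts in replicate 3, and 332.6, 372.1, 248.0 and 384.3 CPM in the light zone. Bach2 had a log2 fold change of -0.90 (SE 0.17, edgeR adjusted p = 0.00534), or -0.84 (adjusted p = 0.00487) without dark zone replicate 3. Bach2 kept its call under every alternative. Pou2af1, the OCT coactivator of germinal centre B cells, was called (log2 fold change -0.58 or -0.51, adjusted p = 0.0413 or 0.0218) but lost the call without dark zone replicate 1, 2 or 4 or light zone replicate 1, 2 or 3 (edgeR adjusted p up to 0.145). Foxo1 encodes a factor required for the dark zone. Foxo1 measured 400.1, 448.6 and 330.1 CPM in the dark zone and 339.4, 304.4, 287.5 and 373.0 CPM in the light zone and did not pass (log2 fold change -0.29 or -0.28, adjusted p = 0.343 or 0.325), and Foxp1 measured 392.1 ± 40.5 and 298.7 ± 135.4 CPM (log2 fold change -0.47 or -0.42, adjusted p = 0.347 or 0.419).

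Genes of the exits from the germinal centre were mixed. Of 25 tested plasma cell genes, 5 were higher in the light zone (Irf4, Prdm1, Derl3, Hsp90b1 and Pdia4) and 2 in the dark zone (Trp53inp1 and Eaf2). These were 28.0% of the list, beside 2.58% of all genes, or 4 and 4 genes without dark zone replicate 3. The median was 0.15, while summed plasma cell markers were 1666 to 1713 CPM in the dark zone and 1400 to 1621 CPM in the light zone. Prdm1 encodes the BLIMP1 repressor of plasma cells that T cells also express. Prdm1 measured 0.76, 3.16 and 1.39 CPM in the dark zone, with 0 counts in replicate 3, and 9.46, 16.4, 47.2 and 12.4 CPM in the light zone. Prdm1 had a log2 fold change of 3.57 (SE 0.72, edgeR adjusted p = 0.00998), or 3.56 (adjusted p = 0.0216) without dark zone replicate 3. It was highest in light zone replicate 3, the library with the most T cell and natural killer cell markers. Prdm1 lost its call without dark zone replicate 1 or light zone replicate 3 (edgeR adjusted p = 0.0615 and 0.0622). Derl3, of endoplasmic reticulum degradation, measured 29.7, 30.1 and 30.6 CPM in the dark zone, with 1 count in replicate 3, and 80.4, 93.7, 123.4 and 92.1 CPM in the light zone. Derl3 had a log2 fold change of 1.69 (SE 0.24, edgeR adjusted p = 0.00074), or 1.69 (adjusted p = 0.00157) without dark zone replicate 3. Derl3 kept its call under every alternative. Hsp90b1 (log2 fold change 0.64 or 0.63, adjusted p = 0.0258 or 0.025) lost its call without dark zone replicate 1 or 2 or light zone replicate 2 or 3 (edgeR adjusted p = 0.0598 to 0.157). Pdia4 (log2 fold change 1.26 either way, adjusted p = 0.0318 or 0.0535) lost it without dark zone replicate 1, 2 or 3 or light zone replicate 2 or 3 (edgeR adjusted p = 0.0535 to 0.139). Trp53inp1 (log2 fold change -1.03 or -1.06, adjusted p = 0.00922 or 0.013) lost it without dark zone replicate 2 (edgeR adjusted p = 0.0858), and Eaf2, an elongation factor partner (log2 fold change -0.56 or -0.54, adjusted p = 0.0441 or 0.0385), without dark zone replicate 1, 2 or 4 or light zone replicate 2 or 3 (edgeR adjusted p up to 0.144). Xbp1 encodes the unfolded protein response factor. Xbp1 measured 319.9 ± 71.8 and 303.8 ± 82.0 CPM (log2 fold change -0.05 or -0.07, adjusted p = 0.944 or 0.915), and Jchain, the joining chain of secreted antibody, 893.2 ± 47.8 and 624.7 ± 57.5 CPM, which did not pass with all libraries. Jchain had a log2 fold change of -0.83 (SE 0.25, edgeR adjusted p = 0.0774), or -0.52 (adjusted p = 0.0128) without dark zone replicate 3.

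Of 24 tested memory B cell genes, 2 were higher in the light zone, among them Fcer2a, and Bach2 was higher in the dark zone. These were 12.5% of the list, beside 2.58% of all genes, and the median was 0.52. Fcer2a encodes the low affinity IgE receptor CD23. Fcer2a measured 144.8, 82.3 and 117.0 CPM in the dark zone, with 0 counts in replicate 3, and 387.4, 413.8, 391.7 and 207.9 CPM in the light zone. Fcer2a had a log2 fold change of 1.65 (SE 0.24, edgeR adjusted p = 0.00074), or 1.61 (adjusted p = 0.00172) without dark zone replicate 3. In naive B cells Fcer2a measured 773.5 ± 19.2 CPM (SD, n = 4), and it belongs to the naive and marginal zone markers that were higher in the light zone. Cd38 measured 58.7, 64.1 and 188.7 CPM in the dark zone and 132.5, 134.7, 199.1 and 284.3 CPM in the light zone and did not pass (log2 fold change 0.85 or 0.82, adjusted p = 0.199 or 0.261).

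Of 32 tested genes for positioning, 1 was higher in the light zone and 1 in the dark zone (6.25%, beside 2.58% of all genes), which is no result about the list. The latter was Gna13, the G protein subunit that holds B cells in the germinal centre, at 438.5 ± 22.1 against 305.2 ± 16.2 CPM (log2 fold change -0.50 or -0.53, adjusted p = 0.0425 or 0.0179). Gna13 lost its call without dark zone replicate 1, 2 or 4 or light zone replicate 1, 2 or 3 (edgeR adjusted p = 0.0863 to 0.192). Its partner receptor S1pr2 measured 365.2 ± 53.2 and 263.0 ± 41.0 CPM (log2 fold change -0.51 or -0.47, adjusted p = 0.0875 or 0.0953), and Cxcr5, the follicle homing receptor, 201.4 ± 52.9 and 277.3 ± 19.3 CPM (log2 fold change 0.49 or 0.45, adjusted p = 0.146 or 0.16), neither of which passed. Gcsam encodes an adaptor of germinal centre B cells that restrains their migration. Gcsam measured 704.9, 731.8 and 621.2 CPM in dark zone replicates 1, 2 and 4, with 13 counts in replicate 3, and 420.5, 316.0, 245.2 and 116.9 CPM in the light zone. Gcsam had a log2 fold change of -1.27 (SE 0.24, edgeR adjusted p = 0.00686), or -1.31 (adjusted p = 0.0135) without dark zone replicate 3. Light zone libraries were spread widely for Gcsam, and each was below each deep dark zone library.

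Lists of survival and of PI3K signalling held 2 calls each, beside 2.58% of all genes, which is no result about either list. Of 29 tested genes of survival and death (6.90% called, 1 in each zone, or 2 and 1 without dark zone replicate 3), Birc3 was higher in the light zone and Bcl2l11, which encodes the death inducer BIM, in the dark zone, at 70.5 ± 6.00 against 36.2 ± 6.96 CPM. Bcl2l11 had a log2 fold change of -0.99 (SE 0.25, edgeR adjusted p = 0.0425), or -0.96 (adjusted p = 0.0452) without dark zone replicate 3. Bcl2l11 lost its call without dark zone replicate 1, 2 or 4 or light zone replicate 1 or 3 (edgeR adjusted p = 0.0634 to 0.166). Of 35 tested genes of PI3K, AKT and mTOR signalling (5.71% called), Akt1 (log2 fold change -0.72 or -0.70, adjusted p = 0.0281 or 0.0288) and Pik3cg, the p110-gamma catalytic subunit (log2 fold change -0.84 either way, adjusted p = 0.0436 or 0.0452), were higher in the dark zone and 0 in the light zone, with a median of -0.03. Akt1 lost its call without dark zone replicate 1 or 2 or light zone replicate 1, 2 or 3 (edgeR adjusted p = 0.0598 to 0.152). Pik3cg lost it without dark zone replicate 1, 2 or 4 or light zone replicate 1, 2 or 3 (edgeR adjusted p = 0.0535 to 0.147). Of 22 tested targets of FOXO1, Bach2 and Bcl2l11 were higher in the dark zone and 1 gene in the light zone. These were 13.6% of the list, beside 2.58% of all genes, and the median was -0.05.

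Several lists held no call in WT. These were oxidative phosphorylation (75 tested, median -0.05), cholesterol and fatty acid synthesis (30 tested, 0.11), interferon response (26 tested, 0.14) and immunoglobulin constant genes (12 tested, -0.15, or -0.05 without dark zone replicate 3). Glycolysis and lactate had 1 call of 27 (3.70%, beside 2.58% of all genes), which is no result about the list. The gene called was the lactate transporter Slc16a1 (log2 fold change 1.5, SE 0.30, edgeR adjusted p = 0.00824, and 1.54, adjusted p = 0.00808, without dark zone replicate 3), which lost its call without dark zone replicate 1 (edgeR adjusted p = 0.0594). The 9 mitochondrially encoded transcripts tested had a median log2 fold change of -0.91 with 0 calls, which became -0.03 without dark zone replicate 3. Igkc, the kappa light chain constant gene, moved in the same way, from -1.67 (adjusted p = 0.183) to -0.06 (adjusted p = 0.905), and measured 695.0, 729.4 and 663.6 CPM in the deep dark zone libraries, with 238 counts in replicate 3, and 611.1, 638.2, 515.1 and 925.8 CPM in the light zone. The difference between zones of these genes is therefore read without the shallow library.

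**Figure D4:**
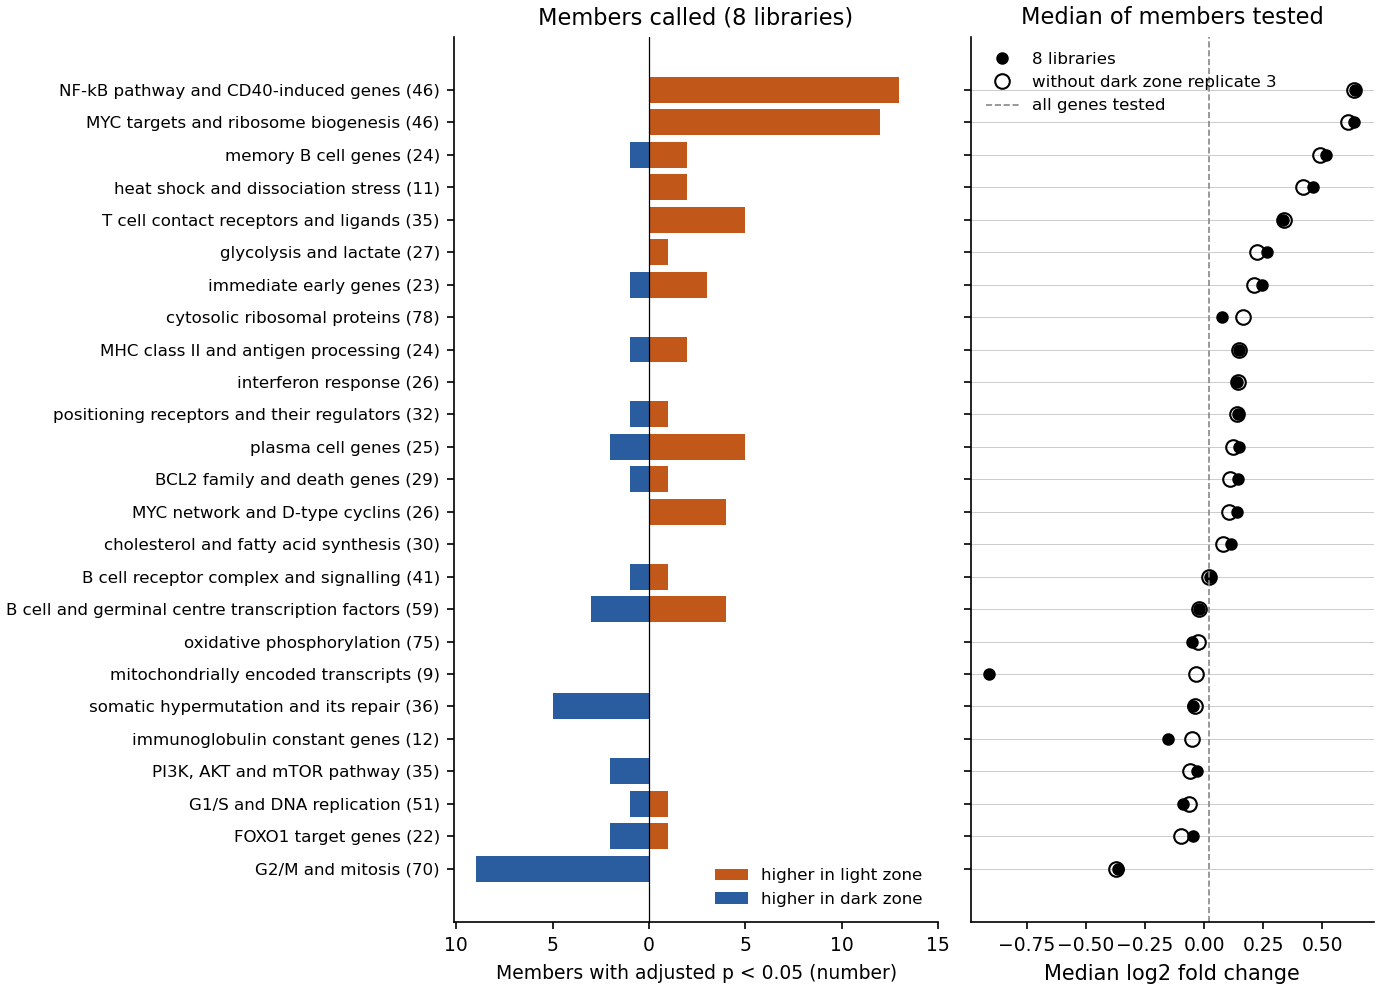
For 25 gene lists (rows, number tested in brackets), the number of members called higher in the light zone (orange, right) or dark zone (blue, left) is shown on the left, and the median log2 fold change of members tested on the right, with all 8 libraries (filled) and without dark zone replicate 3 (open). The NF-kB and MYC target lists have medians of 0.64 and the G2 and mitosis list -0.37, and the mitochondrially encoded list moves from -0.91 to -0.03.

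The zone difference was next set beside that of aPIK3CD mice, of which 4 libraries per zone were available. There 592 of 9798 genes tested (6.04%) were called, 307 in the light zone (3.13%) and 285 in the dark zone (2.91%). Libraries were grouped by title. The grouping of replicate 1 by its genotype field was tried only for the interaction below, and not for these counts. Without dark zone replicate 1 they were 265 in the light zone and 231 in the dark zone, and without light zone replicate 1 they were 211 and 230. Of the 126 light zone genes of WT tested in aPIK3CD, 124 had the same sign there and 81 were called in the same direction, and of 119 dark zone genes 118 and 97. Same signs were not counted over all genes. Over all 9606 genes tested in both genotypes the log2 fold changes also correlated (Pearson r = 0.58, WT without dark zone replicate 3). The agreement in sign is therefore not particular to the genes called. The 178 genes called in both are 68.5% of the WT calls and 30.1% of the aPIK3CD calls. In aPIK3CD the G2 and mitosis list held 11 calls in the dark zone and 0 in the light zone (median -0.28), the NF-kB list 1 and 14 (median 0.37) and the MYC target list 0 and 15 (median 0.47). A difference in the number of calls is not a difference in the zone effect, which was tested by the interaction of zone and genotype.

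That interaction passed in 1 of 10822 genes tested (0.00924%), Wdr4, and in 362 at an unadjusted p below 0.05 (3.35%). Wdr4 encodes a subunit of the tRNA guanine-7 methyltransferase. Wdr4 measured 15.3, 20.4 and 27.3 CPM in WT dark zone replicates 1, 2 and 4 and 111.6, 65.8, 96.3 and 96.1 CPM in the WT light zone. In aPIK3CD it measured 56.5, 46.2, 60.3 and 54.9 CPM in the dark zone and 60.7, 53.0, 57.7 and 52.0 CPM in the light zone, both between the levels of the WT zones. The interaction was -2.13 on the log2 scale (SE 0.33, edgeR adjusted p = 0.0158), with the WT zone difference at 2.16 or 2.13 (adjusted p = 0.000361 or 0.000972) and the aPIK3CD difference at 0.03 (adjusted p = 0.963). No gene passed without dark zone WT replicate 1 or 2, light zone WT replicate 1 or 3, dark zone aPIK3CD replicate 3 or light zone aPIK3CD replicate 4, with a replicate block, or when aPIK3CD replicate 1 was counted as WT or left out. Irf4 had a zone difference of 2.95 in WT and 1.19 in aPIK3CD (adjusted p = 0.0606), and the difference between them, -1.76 on the log2 scale with an SE of 0.59, did not pass adjustment in edgeR.

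**Figure D5:**
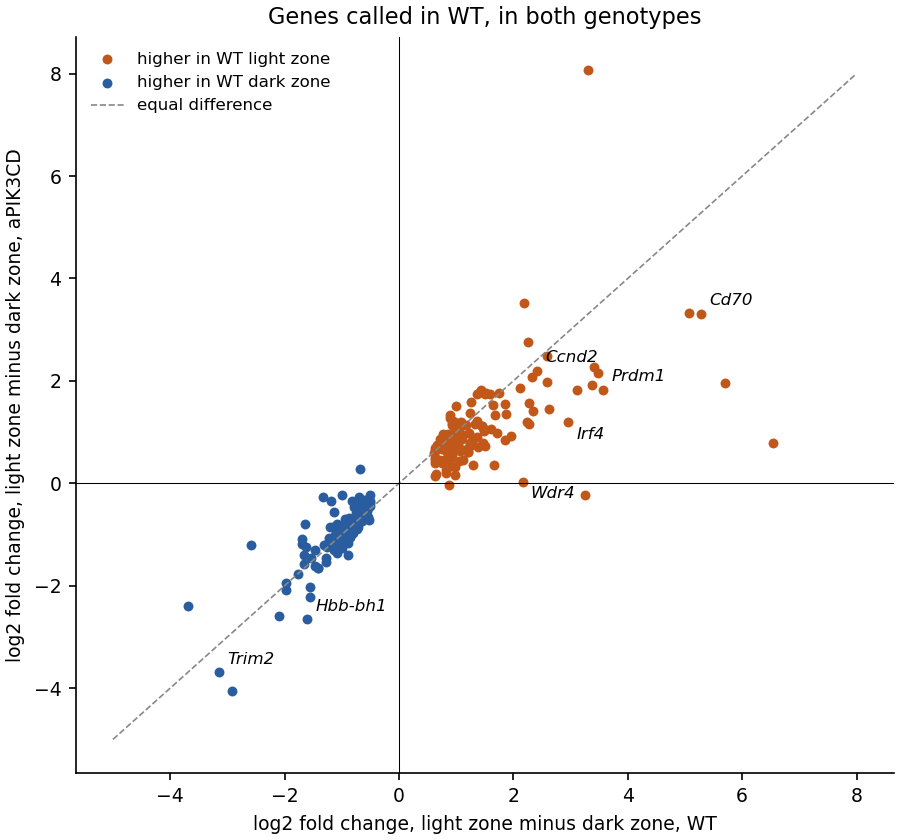
Log2 fold change of light zone minus dark zone in WT (horizontal) and in aPIK3CD (vertical) for the genes called in WT and tested in both, with light zone genes in orange, dark zone genes in blue and the dashed line marking equal differences. Of the 126 orange points 124 lie above 0 and of the 119 blue points 118 lie below 0, while Wdr4 lies near 0 in aPIK3CD. The same counts over all genes are not shown.

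Naive B cells of the WT genotype gave a further level for the genes that differed between zones, on a common TMM scale and as a description. Of the 136 genes higher in the light zone, the naive mean lay above the dark zone mean for 108 (79.4%) and above the light zone mean for 47 (34.6%), beside 49.5% and 48.7% of all genes tested. Of the 124 genes higher in the dark zone, the naive mean lay below both zones for 92 (74.2%), beside 44.4% of all genes tested. Both sets were chosen by their zone levels in these same libraries, which by itself moves such shares. The shares over all genes are therefore not a no-change level for them. Cd40 measured 330.6 ± 32.7 CPM in naive cells (SD, n = 4), 153.2 ± 22.8 in the dark zone (SD, n = 3) and 303.6 ± 32.5 in the light zone (SD, n = 4). Nfkb2 measured 159.8 ± 56.3, 36.3 ± 8.47 and 92.5 ± 16.8 CPM, and Batf 54.2 ± 5.27, 43.4 ± 8.76 and 142.8 ± 21.3 CPM, in the same order. Gcsam was listed at 0 CPM in the naive libraries, 656.6 ± 55.2 in the dark zone and 260.6 ± 121.1 in the light zone. The markers of naive B cells were themselves higher in the light zone, and their part in this count was not tested.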

How the data were processed

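RNA was sequenced from 500 sorted cells per library. Per the labels' protocols, libraries were made with the SMART-Seq v4 kit, and per the submitters' processing notes STAR 2.4.2a, HTSeq and Picard were used. The genome build, annotation and counting options are not given in the sources used here. The authors deposited 1 table of raw counts per gene, with no normalization. Rows without a gene name (0.173% of counts) were kept in library sizes and tests.

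Groups were taken from sample titles. Genes were kept by filterByExpr (minimum count 10, minimum total 15) on the 7 libraries above 100000 counts. Zones were compared on the 8 WT libraries with the quasi-likelihood test of edgeR 4.0.16 in R 4.3.3, with TMM library sizes and zone as the only term. A gene was called at a Benjamini-Hochberg adjusted p below 0.05 over all genes tested. The SE was taken as the size of the log2 fold change over the root of the F statistic. The zone by genotype interaction was fitted on the 16 zone libraries. All adjusted p-values without another tool named are from edgeR. The test was run on simulated data first, where the share of unchanged genes among those called was above the adjusted p threshold. Alternatives used DESeq2 1.42.0, limma 3.58.1 voom, other filters, a replicate block, thinned counts and each library left out.

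Genes were named by rule. The rule took the sort proteins and zone hallmarks, in each direction the 15 called genes with the largest fold change (at least 10 CPM in the higher zone, zones not overlapping, called also without dark zone replicate 3), up to 6 members with the smallest p per list, and up to 6 by the interaction. Genes named otherwise are marked as such or are list members called. The members and lists were chosen with earlier results of these data known. Reads of near-identical genes (globins, immunoglobulin genes, ribosomal proteins) may be split by the counting. Results on 2 called genes are not reported here, although list counts and summed levels include them.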

Additional observations from a re-analysis of the deposited data

Results flagged for a closer look

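Light zone replicate 4 stood apart from the other 3 light zone libraries in 7 named genes, in each of which its gap to the nearest library took most of the range of the 4. It was lowest for Nuggc (197.7 CPM against 280.3 to 281.9 CPM), Hmces (416.8 against 519.0 to 527.3 CPM) and Klf6 (68.5 against 104.1 to 107.5 CPM), all higher in the dark zone. It was also lowest for Nfkbia (435.9 against 494.8 to 503.4 CPM), Pold2, a subunit of DNA polymerase delta (106.7 against 177.8 to 187.4 CPM), and Fcer2a (207.9 against 387.4 to 413.8 CPM), and highest for Trp53inp1 (141.6 against 79.1 to 88.3 CPM). This library has 902088 counts, the fewest of the light zone.

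Light zone replicate 3 was highest for the T cell receptor gene Trbc2 (40.6 against 20.2 to 21.9 CPM) and for the summed natural killer cell markers (218.5 against 4.08 to 22.1 CPM). Replicate 2 was highest for Adhfe1 (9.58 against 0 to 0.68 CPM) and Bcl2l11 (46.5 against 31.5 to 33.8 CPM), and replicate 1 lowest for Hspd1 (158.2 against 177.1 to 179.4 CPM). In the dark zone, replicate 3 stood apart in its total of 25797 counts. In all, 12 of 104 sets of 4 light zone values met this criterion, which chance meets in about 1 in 20. The sets share their libraries and are not independent.

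The zone difference of Wdr4 differed between genotypes by the interaction test, at -2.13 on the log2 scale for aPIK3CD minus WT.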

How the results depend on the processing

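The counts of 136 genes higher in the light zone and 124 higher in the dark zone moved with the test and filter, and the cause was not tested except where fewer samples or more genes entered. The Wald test of DESeq2 called 62 and 58, limma voom with sample quality weights 195 and 211, and a fit with no filter on low counts, which tested 21964 genes, 321 and 238. The voom weights were highest for the shallow dark zone replicate 3 (1.59) and lowest for light zone replicate 4 (0.487), so they did not discount the shallow library. Size factors of DESeq2 gave 143 and 103. Leaving out 1 library in turn gave 50 to 236 and 52 to 199. The lowest counts came without dark zone replicate 1 (50 and 57) or 2 (53 and 52), light zone replicates 2 (83 and 81) and 3 (63 and 83) also lowered them, and leaving out light zone replicate 4 gave the highest. No named gene reversed its direction in any alternative after being called. Of the 95 named genes called, the DESeq2 Wald test lost 36, the fit over all 8 groups 32, and leaving out 1 library 0 to 43.

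Same-numbered zone libraries did not deviate together (correlations of 0.079, 0.015, -0.065 and -0.068 for replicates 1 to 4), and not every library correlated best with its own number. The column names give same-numbered libraries a shared name, but whether they share a mouse is not stated, and they were not treated as pairs. With the replicate block 98 and 92 genes were called, and 45 and 78 with the block and without the shallow library. In aPIK3CD the block gave 517 and 442 calls in place of 307 and 285, no filter gave 487 in the light zone, and leaving out 1 library gave 172 to 346 and 178 to 286.

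The interaction passed in 0 genes with the replicate block, with the aPIK3CD libraries of replicate 1 regrouped as WT or dropped from both zones, in 47 with no filter on low counts, in 1 by DESeq2, and in 0 to 1 when 1 library was left out. Depth limits what dark zone replicate 3 can show, since a gene below 38.0 CPM is often at 0 there, and 34 of the light zone genes called have a mean under 50 CPM in both zones.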
